A study of Mus musculus with 27 samples.

Results

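The 34 genes described here encode enzymes and regulators of cholesterol and fatty acid synthesis. They were chosen by name as genes of the SREBP pathway, not by a threshold on a measured value but with earlier results of these data known, from 48440 gene identifiers in the count files, and all 34 were found in the 6 bulk count files and in both single cell matrices. By role they fall into a mevalonate arm of 7 genes (Acat2, Hmgcs1, Mvk, Pmvk, Mvd, Idi1 and Fdps), a squalene and sterol arm of 11 (Fdft1, Sqle, Lss, Cyp51, Tm7sf2, Msmo1, Nsdhl, Hsd17b7, Ebp, Sc5d and Dhcr7), 6 regulators and transport genes (Insig1, Insig2, Srebf1, Srebf2, Scap and Stard4) and a fatty acid arm of 10 (Fasn, Acaca, Acly, Acss2, Scd1, Scd2, Elovl6, Me1, Fads1 and Fads2).

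Cells make cholesterol from acetyl-CoA through mevalonate, farnesyl diphosphate, squalene and lanosterol, and fatty acids from the same acetyl-CoA. The transcription factors SREBP1 and SREBP2, the products of Srebf1 and Srebf2, are held in the endoplasmic reticulum by SCAP and the INSIG proteins when sterols are plentiful. When sterols run low they are cut, move to the nucleus and switch on most genes of both routes, with SREBP2 acting mainly on sterol genes and SREBP1c on fatty acid genes. In macrophages the same pathway is balanced by LXR, a receptor for oxidised sterols and sterol intermediates that switches on cholesterol export genes.

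The study took tumours grown from MC38, a mouse colon adenocarcinoma line. WT mice carried a floxed Ogt gene, which encodes O-GlcNAc transferase, and KO mice carried the same floxed gene together with Lyz2-cre, a recombinase driven from the lysozyme locus of myeloid cells. Bulk RNA-seq covered tumour macrophages in 3 WT and 3 KO libraries, and single cell RNA-seq covered CD45-positive immune cells with 2 labelled samples but 1 matrix per genotype. Whether a matrix pools both samples is not stated. EGR2 CUT&Tag gave 1 peak list per genotype and ATAC-seq 1 merged list. The labels give neither ages nor which animals a library came from, so the p-values measure the spread between these libraries, which may be technical. In bulk, Ogt RNA was 56.3 CPM in WT and 34.7 CPM in KO, Lyz2 was 3882 and 84.0 CPM, and Egr2 was 265 and 143 CPM. Cre, the loss of Lyz2 RNA and the Ogt deletion go together in KO and cannot be told apart.

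The bulk libraries held 7032540 to 12439582 counts in WT and 11468556 to 32406170 in KO. The 10 macrophage markers summed to 10070 to 10340 CPM in WT and 9925 to 10090 CPM in KO. Markers of other cells were present too, and some of these lists moved with genotype. The 15 markers of T and NK cells summed to 301 to 307 CPM in WT and 481 to 493 CPM in KO, with 11 of 14 tested called higher and 1 lower. The 5 B cell markers summed to 52.3 to 54.4 CPM in WT and 105 to 111 CPM in KO. Of these, 2 were called higher and 1 lower. The 10 cell cycle genes summed to 579 to 601 and 633 to 668 CPM, with 4 called higher and 1 lower. Sums overlapped between genotypes for the 6 neutrophil markers, 95 to 104 CPM in WT and 101 to 111 CPM in KO. Of these, 1 was called higher and 3 lower. They overlapped too for the 8 markers of tumour or stroma, 84.2 to 96.9 and 93.5 to 104 CPM. Of 7 tested there, 3 were called higher and 2 lower. The 7 markers of migratory dendritic cells summed to 620 to 645 CPM in WT and 245 to 247 CPM in KO, with 7 of 7 called lower. Of 6 markers each, 5 of the classical monocyte list were called higher, and 5 of the Arg1-positive list and 4 of the Mmp12 and Mgl2 list were called lower. No gene of these lists was at 0 in all libraries. The part of these cells in the results below was not tested in bulk, where fewer cells of a type and less RNA per cell cannot be told apart.

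In bulk macrophages the sterol genes were lower in KO as a group, while most fatty acid genes did not pass the test. Of 33 members tested, 20 were called lower (adjusted p below 0.05, edgeR), 0 were called higher and 13 were not called. Of all 12939 genes tested, 18.9% were called lower and 18.8% higher. The median log2 fold change, KO over WT, was -0.47 over the members and -0.00128 over all genes. In 23 of the 34 members all 3 KO values lay below all 3 WT values, 22 of them among the tested members, against 23.3% of all genes. Of the members, 11 were both called and at least 1.5-fold lower, against 6.26% of all genes. Summed over the 34 genes, expression was 2561, 2622 and 2550 CPM in the WT libraries and 1857, 1890 and 1872 CPM in the KO libraries.

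**Figure D1:**
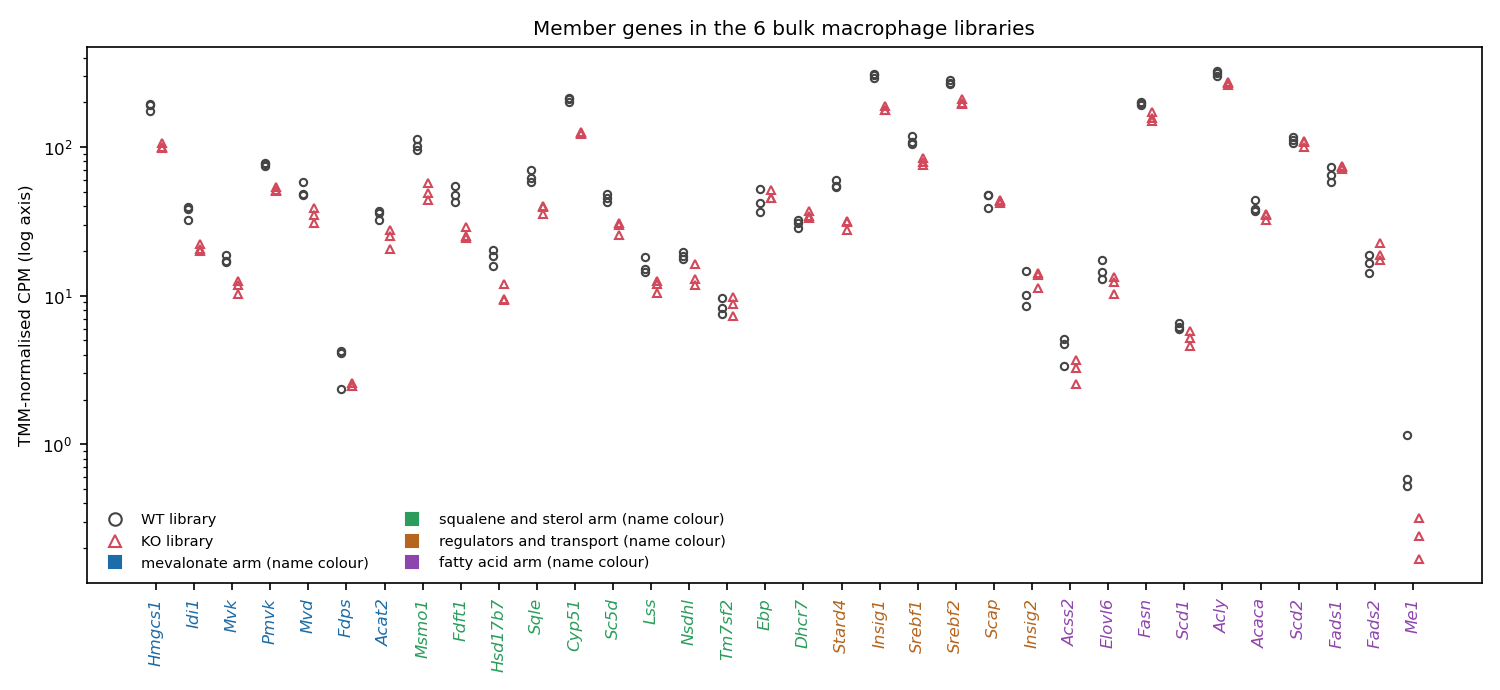
Expression of each member in the 6 bulk libraries, as TMM-normalised CPM on a log axis, with circles for the 3 WT and triangles for the 3 KO libraries and gene names coloured by role. For Hmgcs1, Msmo1, Cyp51, Insig1 and Stard4 the KO triangles lie clear of the WT circles, while those of Tm7sf2, Ebp, Scap and Scd2 overlap.

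In the mevalonate arm, 6 of 7 genes were called lower, with a median log2 fold change of -0.57. Hmgcs1 (ENSMUSG00000093930.1, mm10 chromosome 13, 119690462 to 119708086), the synthase that makes HMG-CoA, measured 176, 193 and 190 CPM in WT and 98.6, 106 and 99.3 CPM in KO. Its groups were far apart, with 3 libraries each, and the level was 1.84-fold lower in KO (log2 fold change -0.88, SE 0.0517, adjusted p = 5.465e-24). Idi1 (ENSMUSG00000058258.14, chromosome 13, 8885501 to 8892451), which isomerises isopentenyl diphosphate, measured 32.1, 38.1 and 39.2 CPM in WT and 20.1, 20.5 and 22.4 CPM in KO. It was 1.73-fold lower (log2 fold change -0.79, SE 0.116, adjusted p = 3.73e-08). Between these steps, the mevalonate kinase Mvk fell from 17.6 ± 1.02 to 11.5 ± 1.23 CPM (SD, n = 3), the phosphomevalonate kinase Pmvk from 76.8 ± 1.67 to 51.9 ± 2.01 CPM, and the decarboxylase Mvd from 51.4 ± 5.92 to 34.8 ± 4.04 CPM. These 3 consecutive enzymes changed by a like amount, with log2 fold changes of -0.61, -0.57 and -0.56. Acat2, the thiolase that starts the route, fell from 35.2 ± 2.67 to 24.6 ± 3.58 CPM. Fdps, which makes farnesyl diphosphate, was the member of the arm that was not called. It measured 4.14, 2.35 and 4.25 CPM in WT and 2.58, 2.46 and 2.47 CPM in KO, with groups that overlapped. Reads that map to several places were left out of these counts, and the single cell matrices hold Fdps at 72.6 and 73.6 CPM in macrophage-like cells, so its bulk level is uncertain.

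In the squalene and sterol arm, 8 of 11 genes were called lower, with a median of -0.67. Msmo1 (ENSMUSG00000031604.10, chromosome 8, 64718139 to 64733792), which oxidises methyl groups of lanosterol-derived sterols, showed the largest change of the 33 tested members. It measured 95.1, 114 and 102 CPM in WT and 44.2, 49.4 and 57.1 CPM in KO. Every KO library was well below every WT library, a 2.08-fold difference (log2 fold change -1.06, SE 0.0773, adjusted p = 2.96e-19). Fdft1 (chromosome 14, 63145153 to 63177793), the squalene synthase that commits farnesyl diphosphate to sterols, measured 42.7, 47.6 and 54.3 CPM in WT and 25.3, 29.1 and 24.5 CPM in KO. Its log2 fold change was -0.87 (SE 0.105, adjusted p = 1.352e-10). Sqle, the squalene epoxidase, measured 70.0, 57.9 and 61.9 CPM in WT and 35.5, 39.3 and 40.0 CPM in KO. Cyp51 (chromosome 5, 4081145 to 4104746), the lanosterol demethylase, measured 209, 202 and 213 CPM in WT and 123, 127 and 124 CPM in KO. Both were lower by close to the same log2 amount, -0.74 with SE 0.0887 for Sqle and -0.74 with SE 0.0466 for Cyp51. The ketosteroid reductase Hsd17b7 fell from 18.2 ± 2.27 to 10.3 ± 1.52 CPM and the sterol desaturase Sc5d from 45.5 ± 2.54 to 28.7 ± 2.92 CPM. Lss, the lanosterol synthase, fell from 15.9 ± 2.06 to 11.7 ± 1.06 CPM and the dehydrogenase Nsdhl from 18.6 ± 1.07 to 13.7 ± 2.43 CPM. These last 2 calls were the weakest of the arm. Without WT replicate 1, Lss had an adjusted p of 0.1578 and Nsdhl of 0.05956, and without KO replicate 1 Lss had 0.121. Nsdhl had 0.06941 without WT replicate 2, 0.1373 without KO replicate 2 and 0.08819 without KO replicate 3.

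The 3 sterol genes that were not called encode 2 reductases and an isomerase. Dhcr7, the reductase that makes cholesterol from dehydrocholesterol, measured 28.5, 31.0 and 32.2 CPM in WT and 34.4, 36.8 and 33.2 CPM in KO. It was the 1 member with every KO value above every WT value, with a log2 fold change of 0.19 (SE 0.106, adjusted p = 0.149). The isomerase Ebp was 43.5 ± 7.87 CPM in WT and 47.4 ± 3.56 CPM in KO, and the reductase Tm7sf2 was 8.46 ± 1.05 and 8.64 ± 1.30 CPM. Without WT replicate 2, Ebp was called higher (log2 fold change 0.27, adjusted p = 0.0337).

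Among regulators and transport genes, 4 of 6 were called lower, with a median of -0.46. Insig1 (ENSMUSG00000045294.11, chromosome 5, 28071363 to 28078662), the SREBP-induced inhibitor of SREBP processing, measured 306, 293 and 310 CPM in WT and 178, 178 and 187 CPM in KO. Its groups did not overlap (1.68-fold lower, log2 fold change -0.75, SE 0.0393, adjusted p = 1.592e-26). Insig2, the inhibitor that SREBP does not induce, measured 14.7, 10.0 and 8.49 CPM in WT and 14.2, 11.2 and 13.8 CPM in KO. Its groups overlapped and it was not called (log2 fold change 0.21, SE 0.175, adjusted p = 0.3658). Stard4, a sterol transfer protein, measured 60.3, 53.5 and 55.0 CPM in WT and 31.6, 27.8 and 31.3 CPM in KO. Its log2 fold change of -0.89 (SE 0.0942, adjusted p = 1.331e-12) was the largest outside the synthesis enzymes. Srebf2 (chromosome 15, 82147266 to 82205376) measured 268, 281 and 267 CPM in WT and 199, 209 and 196 CPM in KO, and Srebf1 measured 105, 119 and 108 CPM in WT and 76.2, 84.8 and 78.7 CPM in KO. Both factor genes were lower, by 0.44 and 0.47 on the log2 scale. Scap, the escort of both factors, was 44.6 ± 5.14 CPM in WT and 43.2 ± 0.923 CPM in KO and was not called.

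In the fatty acid arm, 2 of 9 tested genes were called lower, with a median of -0.22. This count is close to the share of all tested genes called lower, 18.9%, and nothing is read from it. Fasn (chromosome 11, 120805846 to 120824547), the fatty acid synthase, measured 198, 201 and 192 CPM in WT and 157, 173 and 150 CPM in KO. Acly, which makes cytosolic acetyl-CoA for both routes, measured 315, 323 and 302 CPM in WT and 273, 269 and 263 CPM in KO. Both were separated between genotypes but by less than any called sterol gene, with log2 fold changes of -0.30 (SE 0.047, adjusted p = 2.425e-07) and -0.22 (SE 0.0356, adjusted p = 4.073e-07). The desaturase gene Scd2 was nearly level, at 117, 107 and 111 CPM in WT and 109, 99.5 and 108 CPM in KO (log2 fold change -0.08, SE 0.0587, adjusted p = 0.2992). Acaca, the carboxylase that makes malonyl-CoA, was 39.6 ± 3.71 CPM in WT and 34.1 ± 1.87 CPM in KO (adjusted p = 0.08646). The elongase Elovl6 was 14.8 ± 2.22 and 12.0 ± 1.61 CPM, and Scd1, Acss2 and Me1 were each under 7 CPM in every library. Me1, the malic enzyme, was below the count filter and not tested, at 0.756 ± 0.351 CPM in WT and 0.243 ± 0.0748 CPM in KO. Scd1 was 6.21 ± 0.283 and 5.16 ± 0.582 CPM, and the acetyl-CoA synthetase Acss2 was 4.41 ± 0.907 and 3.16 ± 0.57 CPM. The desaturases of polyunsaturated fatty acids had higher means in KO, 65.4 ± 8.02 and 73.3 ± 1.47 CPM for Fads1 and 16.5 ± 2.22 and 19.5 ± 2.73 CPM for Fads2. Neither was called, but Fads1 (log2 fold change 0.18, adjusted p = 0.06543) was called higher under upper-quartile scaling, with only genes of at least 10 CPM, with each count divided by 2 (a read pair counted once) and without WT replicate 2.

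**Figure D2:**
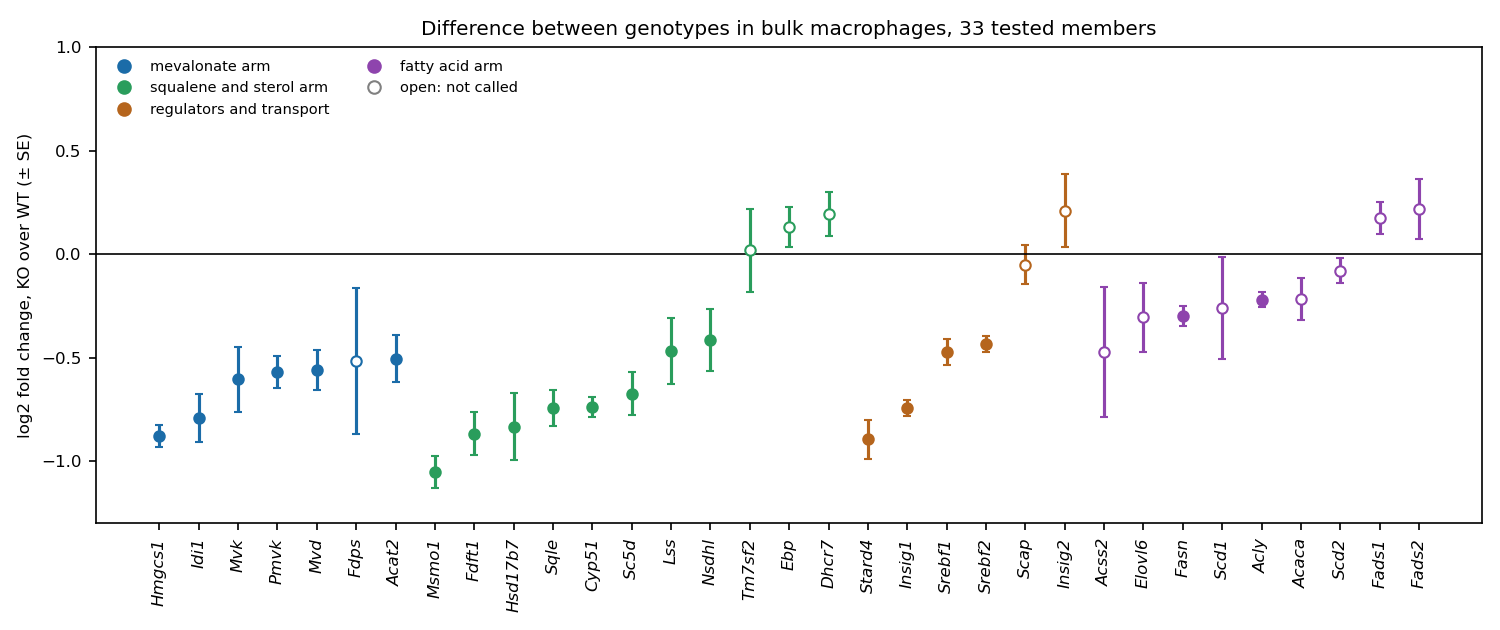
Log2 fold change, KO over WT, of the 33 tested members with its standard error, coloured by role, with filled points for the 20 members called lower and open points for the 13 not called. The mevalonate, sterol and regulator genes reach from -1.06 to 0.21 and most fatty acid genes lie closer to 0.

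Per kilobase of exon, Insig1 was the most abundant member in both genotypes, at 97.9 ± 2.85 FPKM in WT and 58.5 ± 1.83 FPKM in KO. Acly (59.3 ± 1.99 FPKM), Hmgcs1 (57.7 ± 2.87 FPKM) and Srebf2 (54.5 ± 1.51 FPKM) followed in WT, with mean ± SD ranges that overlapped from each to the next, and then Cyp51 (47.1 ± 1.27 FPKM) and Pmvk (44.8 ± 0.977 FPKM). In KO, Hmgcs1 (31.4 ± 1.33 FPKM) stood below Srebf2 (40.3 ± 1.39 FPKM). Acss2 and Me1 were the lowest members in both genotypes.

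Genes next to these in the same pathways did not share a direction. Of 35 tested genes of a list of related enzymes and regulators, 11 were called lower and 10 higher. Of all genes tested, 18.9% were called lower and 18.8% higher. The median log2 fold change of the list was -0.12. Called lower was Cyb5r3, a reductase that feeds electrons to steps of sterol and fatty acid synthesis (log2 fold change -0.77, adjusted p = 3.118e-21). So was Tmem97, a sterol-responsive membrane protein (-0.89, adjusted p = 1.983e-08). Aacs, which activates acetoacetate for lipid synthesis (-0.68, adjusted p = 1.689e-08), and the aldolase Aldoc (-0.99, adjusted p = 1.097e-18) were lower too. Called higher were G6pdx, the enzyme that opens the pentose phosphate route to NADPH (0.39, adjusted p = 1.373e-08), and Erlin1, a sterol-binding protein of the endoplasmic reticulum (0.46, adjusted p = 4.368e-08). Of 10 LXR genes, 5 were called lower and 3 higher, against the same 18.9% and 18.8% of all genes. Apoe measured 2012, 2076 and 2088 CPM in WT and 1377, 1433 and 1382 CPM in KO (log2 fold change -0.56, adjusted p = 1.404e-35), Arl4c changed by -0.50 and Lpcat3 by -0.49. The exporter genes Abcg1 (0.71, adjusted p = 7.866e-12) and Abcg2 (0.77, adjusted p = 0.001017) and the phospholipid transfer gene Pltp (0.26, adjusted p = 2.852e-05) were higher, while the exporter gene Abca1 was lower (-0.28, adjusted p = 0.004203). Nfya, Nfyb and Nfyc, which encode NF-Y, a factor that binds beside SREBP, were not called.

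The promoters of the members were read to see what the genes that fell share in sequence. RefSeq promoter windows (GRCm38.p6, 250 bases before to 50 after a start) were held for 27 members. On both strands they were searched for TCACNCCAC (a sterol response element core), CCAAT (the NF-Y box), CACGTG (the E-box) and GTGGGNG and GTGGGCG (EGR cores), and a gene counts if any of its windows holds the letters. The NF-Y box was found in 22 of 27 members, against 42.8% of 9355 tested genes and 37.4% of all 32851 windows. It was in 16 of 17 matched members called lower, Acat2 being the exception, and in 5 of 9 matched members not called, of which Dhcr7 and Insig2 held it in 1 of 3 windows each. Among those called lower, Pmvk held it in 1 of 2 windows, Srebf1 in 2 of 3, and Acly only after the start. The sterol response element core was found in 1 member, Hmgcs1, and in 1.41% of tested genes. The E-box was in 5 of 27 members (11.9% of tested genes) and the EGR cores in 9 and 8 of 27 (42.2% and 16.5% of tested genes). The 250 bases before the start are shown for 6 genes, chosen after their values were known. They are Hmgcs1, Msmo1, Cyp51 and Insig1, with large bulk changes in the 3 sterol-related groups, Mvk with the most boxes, and Elovl6, not called and without a box. Capitals mark the NF-Y box on either strand (CCAAT or ATTGG) and, in Hmgcs1, the sterol response element core that begins 137 bases before the start. They were taken from chr13:119690101-119690350 on the plus strand (Hmgcs1), chr5:114444019-114444268 on the plus strand (Mvk), chr8:64733579-64733828 on the minus strand (Msmo1), chr5:4104698-4104947 on the minus strand (Cyp51), chr5:28071162-28071411 on the plus strand (Insig1) and chr3:129532136-129532385 on the plus strand (Elovl6).
Hmgcs1: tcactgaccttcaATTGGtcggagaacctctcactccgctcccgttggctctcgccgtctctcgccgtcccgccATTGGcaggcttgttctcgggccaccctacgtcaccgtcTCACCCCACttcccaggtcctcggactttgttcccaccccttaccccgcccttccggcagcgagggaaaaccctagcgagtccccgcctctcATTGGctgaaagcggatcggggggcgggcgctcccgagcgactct
Mvk: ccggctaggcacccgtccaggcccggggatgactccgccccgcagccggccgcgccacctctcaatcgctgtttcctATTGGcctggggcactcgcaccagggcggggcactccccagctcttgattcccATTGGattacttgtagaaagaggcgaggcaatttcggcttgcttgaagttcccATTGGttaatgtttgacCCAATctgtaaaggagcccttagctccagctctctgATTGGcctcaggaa
Msmo1: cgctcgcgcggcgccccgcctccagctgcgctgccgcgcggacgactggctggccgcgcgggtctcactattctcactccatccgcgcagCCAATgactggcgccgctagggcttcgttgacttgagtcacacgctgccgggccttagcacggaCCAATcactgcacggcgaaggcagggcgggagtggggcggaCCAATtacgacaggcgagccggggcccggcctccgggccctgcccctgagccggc
Cyp51: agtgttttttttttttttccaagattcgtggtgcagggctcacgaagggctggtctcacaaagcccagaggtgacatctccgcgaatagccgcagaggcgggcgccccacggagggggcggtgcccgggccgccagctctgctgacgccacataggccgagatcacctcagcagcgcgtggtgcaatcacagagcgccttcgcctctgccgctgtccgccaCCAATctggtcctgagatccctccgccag
Insig1: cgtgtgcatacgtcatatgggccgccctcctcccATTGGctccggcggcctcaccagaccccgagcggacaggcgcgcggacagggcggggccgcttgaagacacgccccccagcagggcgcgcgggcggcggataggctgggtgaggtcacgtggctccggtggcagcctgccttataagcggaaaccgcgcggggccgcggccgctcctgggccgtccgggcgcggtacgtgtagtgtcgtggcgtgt
Elovl6: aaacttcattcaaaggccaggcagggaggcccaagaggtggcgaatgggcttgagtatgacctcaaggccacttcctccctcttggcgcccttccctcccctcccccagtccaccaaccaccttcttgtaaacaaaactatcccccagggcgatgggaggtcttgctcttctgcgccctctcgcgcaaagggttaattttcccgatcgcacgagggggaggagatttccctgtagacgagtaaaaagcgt
Mvk holds 5 boxes in this stretch, Hmgcs1 and Msmo1 hold 3 each, and Cyp51 and Insig1 hold 1 each. A match is a stretch of letters and was not tested as a binding site.

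The study mapped EGR2, a zinc finger transcription factor, and its peaks were looked for near the starts of these genes. Of 34 members, 0 had an EGR2 peak of the WT list within 1 kb of the annotated start, against 1.12% of tested genes, and 0 had one of the KO list, against 0.788%. At shares this low, 0 of 34 is close to the share over all genes, and nothing is read from it. ATAC peaks lay within 1 kb of 3 members (Cyp51, Fasn and Fdft1), against 8.47% of tested genes. Within 5 kb, 0 members had a WT EGR2 peak (4.62% of genes) and 3 had a KO EGR2 peak (3.76% of genes). The peak at Cyp51 (mm10 chromosome 5, 4103212 to 4103712) was centred 1284 bp downstream of the start and its score stood at the 99.0 percentile of the KO list. Those at Fasn and Scd1 stood at the 58.2 and 5.21 percentiles. The scores are the authors' and rank peaks within a list, and the lists hold 1 peak call per genotype without replicates.

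In single cells the pathway could be followed in each immune class. Of 85755359 UMIs in the WT matrix and 85418469 in the KO matrix, those of 9712 WT and 9767 KO cells were used, and the median cell held 5579 and 5807 UMIs. Of the kept barcodes, 23 occur in both matrices. The classes were named from markers, so each name below means cells like that class, and the members were left out of the genes used for clustering. With 1 matrix per genotype no test was made, and the 95% intervals cover counting error only. Barcodes with at most 100 UMIs, which carry free RNA, held the 34 members at 1101 CPM in WT and 1150 CPM in KO, close to the level in macrophage-like cells. The part of free RNA in the class levels was not tested.

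Summed over the 34 genes, regulatory T cells were the highest of the larger classes, at 1298 CPM (1269 to 1327) in WT and 1299 CPM in KO. Macrophage-like cells held 1152 CPM (1138 to 1167) in WT and 1116 CPM in KO, CD8 T cells 1073 (1054 to 1092) and 1175 CPM, and monocyte-like cells 978 (955 to 1001) and 958 CPM. NK cells (854 and 896 CPM), CD4 T cells (804 and 877 CPM) and gamma-delta T or innate lymphoid cells (680 and 670 CPM) were lower. Neutrophil-like cells were the lowest, at 344 CPM (316 to 374) in WT and 290 CPM in KO, below the level of free RNA. The highest values, 2165 CPM in WT and 1292 CPM in KO (ratio 0.597, interval 0.504 to 0.703), came from 33 and 17 plasmacytoid dendritic-like cells, where the mevalonate arm was 1045 and 502 CPM. In these cells the T and NK cell markers had a KO over WT ratio of 0.257, the cell cycle genes summed to 358 CPM in WT and 110 CPM in KO and the neutrophil markers to 102 and 13.7 CPM, and their part was not tested. In WT the order of macrophage-like, CD8 T and monocyte-like cells was outside their intervals, while in KO CD8 T cells were above macrophage-like cells.

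**Figure D3:**
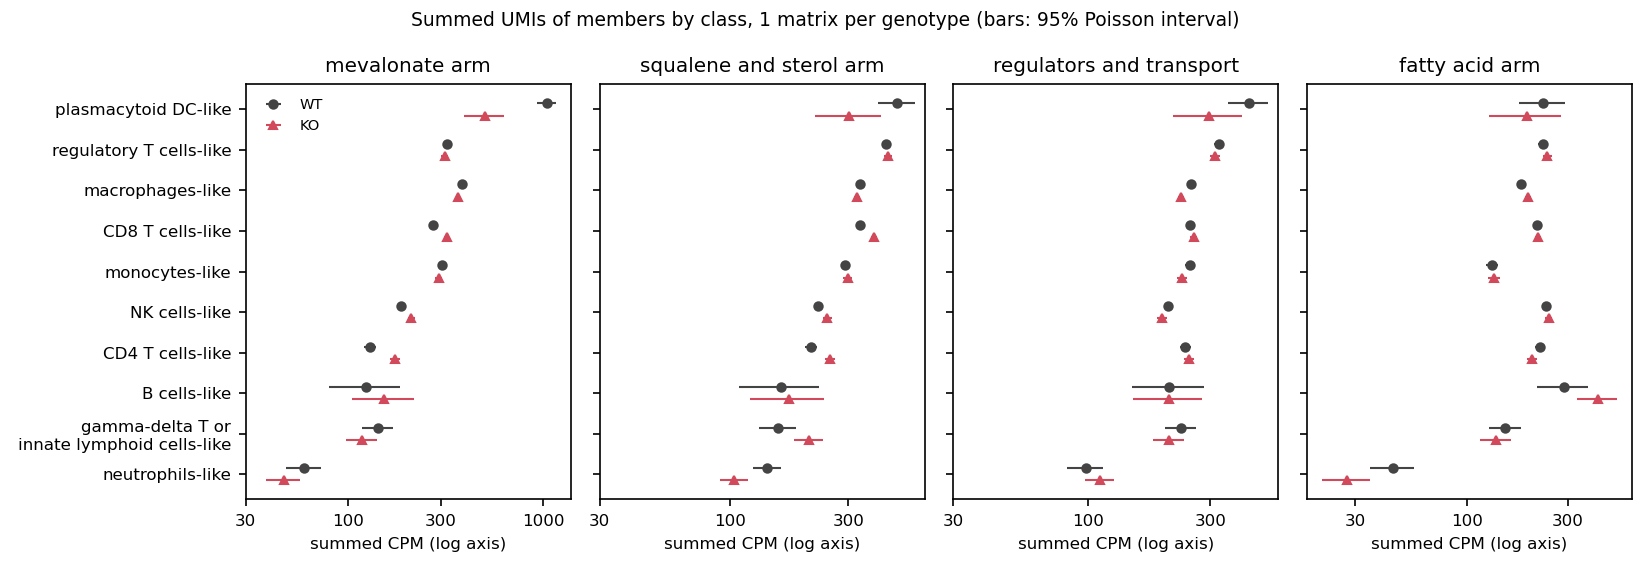
Summed CPM of each role group in each class, on log axes, with circles for the WT matrix and triangles for the KO matrix and bars for the 95% Poisson interval. Macrophage-like and regulatory T cells are high in both sterol panels, neutrophil-like cells are low in every panel, and B-like cells stand out in the fatty acid panel alone.

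The arms were divided differently between classes. In WT the mevalonate arm was 384 CPM in macrophage-like cells, 320 CPM in regulatory T cells, 304 CPM in monocyte-like cells and 272 CPM in CD8 T cells, and no more than 186 CPM in NK, CD4 T, gamma-delta T or B-like cells. Among the larger classes the squalene and sterol arm was highest in regulatory T cells (425 CPM), with macrophage-like and CD8 T cells level at 336 CPM each. The 33 plasmacytoid dendritic-like cells of WT held this arm at 470 CPM (395 to 555). The fatty acid arm varied less among lymphoid classes, from 152 to 286 CPM, and was 181 CPM in macrophage-like cells and 44.96 CPM in neutrophil-like cells. Scd1, the stearoyl-CoA desaturase, was concentrated in B-like cells, at 130 CPM in WT and 274 CPM in KO over 33 and 40 cells, and was under 2 CPM in every other class. The B-like cells of the matrices were unlike, with B cell markers at 25030 CPM in WT and 2885 CPM in KO and macrophage markers at 529 and 2159 CPM. Fads2 stood at 34.04 and 68.7 CPM in the plasmacytoid dendritic-like cells and at 2.27 and 7.15 CPM in macrophage-like cells.

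Set against the lymphoid classes together, macrophage-like cells held 1.17 times the summed member level in WT (1.16 to 1.19) and 1.05 times in KO (1.04 to 1.07). Of 19 members that passed the count filter, Pmvk alone was at least 2-fold higher in macrophage-like cells in both matrices (85.1 against 33.3 CPM in WT, 87.7 against 34.3 CPM in KO), a size reached by 14.1% of all genes. Elovl6 alone was at least 2-fold lower in both (13.6 against 38.1 CPM, 9.79 against 31.0 CPM), which 13.8% of all genes were. Hmgcs1, at 112 against 67.2 CPM in WT and 97.9 against 72.8 CPM in KO, and Insig1, at 112 against 59.1 CPM in WT and 97.4 against 61.8 CPM in KO, leaned the same way as Pmvk without reaching that size. Fdps, Sqle, Msmo1 and Acly were also higher in both matrices, and Idi1 was higher in WT and nearly level in KO. Scap leaned the other way, at 9.09 against 22.3 CPM in WT and 10.7 against 24.3 CPM in KO. Ebp, Sc5d, Srebf1, Srebf2, Stard4, Fasn, Acaca and Scd2 were lower in both matrices too. Cyp51 was higher in WT and lower in KO.

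Over the macrophage-like class as a whole, the single cell matrices differed less than the bulk libraries. The summed level in KO was 0.968 times WT (0.951 to 0.986). Of 17 members that passed the filter, 0 were at least 1.5-fold lower in KO (1.04% of all genes) and 1, Insig2, was at least 1.5-fold higher (2.55% of all genes). Insig2 (12.1 and 22.4 CPM) passed the filter of 20 CPM only through KO, and with the filter on the mean of both matrices, added after seeing the data, 16 members passed with 0 lower and 0 higher. The median log2 ratio of the 17 was -0.05, and 9 of 17 were below 0, against 36.1% of all genes, whose median was 0.07. The ratio lay below 1 by more than counting error for 6 members. These were Stard4 (0.719, interval 0.632 to 0.818), Fdft1 (0.821), Srebf2 (0.837), Insig1 (0.866), Hmgcs1 (0.875) and Cyp51 (0.884), each of them called lower in bulk. It lay above 1 for Insig2 (1.85, interval 1.59 to 2.17), Scd2 (1.24) and Ebp (1.13), none of them called lower in bulk. Stard4 (27.5 and 19.8 CPM) and Fdft1 (24.0 and 19.7 CPM) reached 20 CPM only in WT. Both also passed the filter on the mean of both matrices. The share of all genes with such intervals is not given here, so nothing is read from these counts of members. Msmo1, with the largest bulk change of the tested members, was 78.6 CPM in WT and 73.8 CPM in KO (ratio 0.94, interval 0.876 to 1.01), and Sqle was 27.3 and 28.8 CPM. The other 17 members were below the filter, and 7 of them had an interval that left out 1. The ratio was above 1 for Fads1 (7.54 and 13.96 CPM, ratio 1.85), Fads2 (2.27 and 7.15 CPM, 3.15), Dhcr7 (7.59 and 11.3 CPM, 1.49), Scd1 (0.58 and 1.58 CPM, 2.73) and Lss (2.61 and 4.17 CPM, 1.60, interval 1.13 to 2.29), the last of which was called lower in bulk. It was below 1 for Hsd17b7 (9.67 and 6.81 CPM, 0.705) and Elovl6 (13.6 and 9.79 CPM, 0.718).

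The macrophage-like class was made of 4 clusters, and the summed member level of WT ran from 853 to 1266 CPM between them. A cluster led by C1qb and the MHC class II genes H2-Eb1 and H2-Ab1, called the MHC class II high state, held the most, 1266 CPM in WT and 1280 CPM in KO. A cluster led by Arg1, Pf4 and Retnla, called Arg1-positive, held 956 CPM (WT) and 1051 CPM (KO). A cluster led by Ccl12, Cadm1 and Vcam1 with C1qc and C1qa, called C1q-high, held 1175 CPM (WT) and 1072 CPM (KO). A shallower C1q-high cluster with median depths of 2223 and 2921 UMIs held 853 and 690 CPM. Ogt RNA was 70.1 CPM in WT and 52.2 CPM in KO in the Arg1-positive state. It was 44.4 and 37.5 CPM in the MHC class II high state and 44.7 and 36.6 CPM in the deeper C1q-high state. In the same order Egr2 was 187 and 173, 178 and 145, and 99.5 and 61.4 CPM. Lyz2 was 2415 and 12.4, 3347 and 12.5, and 3362 and 15.3 CPM. The MHC class II high and Arg1-positive states of WT differed in the mevalonate arm (452 and 263 CPM) and the sterol arm (375 and 267 CPM) and little in the regulators (261 and 256 CPM) and the fatty acid arm (179 and 170 CPM). Idi1 was 104 CPM in the MHC class II high state and 51.3 CPM in the Arg1-positive state of WT, Fdps 87.6 and 37.6 CPM, Hmgcs1 128 and 79.6 CPM, Cyp51 119 and 87.9 CPM. Insig1 (118 and 116 CPM), Acaca (32.7 and 31.1 CPM) and Sc5d (23.7 and 25.2 CPM) did not share this gap, and Acly (68.0 and 81.9 CPM) and Srebf2 (69.7 and 82.4 CPM) leaned the other way.

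Between genotypes the states took different shares. The MHC class II high state held 47.6% of macrophage-like cells in WT (exact Clopper-Pearson interval 45.7 to 49.5) and 30.2% in KO (28.4 to 32.0), and the Arg1-positive state 41.4% and 52.3%. The deeper C1q-high state held 6.82% and 11.8% of cells and 13.3% and 29.1% of the class's UMIs. Most cells of the class were thus MHC class II high or Arg1-positive in both genotypes, in a different order. Without replicates these shares were not tested. With the KO level of each state weighted by its WT share of UMIs, an alternative added after seeing the data, the summed ratio moved from 0.968 to 1.02 and that of the mevalonate arm from 0.952 to 1.04.

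Within the Arg1-positive state the mevalonate arm was 263 CPM in WT and 313 CPM in KO (ratio 1.19, interval 1.12 to 1.27) and the squalene and sterol arm 267 and 303 CPM (1.14, interval 1.07 to 1.21). Fdps (37.6 and 56.6 CPM), Sqle (21.5 and 29.6 CPM), Idi1 (51.3 and 64.0 CPM), Msmo1 (69.3 and 86.2 CPM) and Insig2 (12.4 and 20.4 CPM) were the 5 with the largest log2 ratios of the 17 members that passed the filter. Insig2 passed that filter only through KO, and nothing is read from its place among them. Of 17 members there, on the scale with 5 CPM added, 0 were at least 1.5-fold lower (1.28% of all genes) and 0 at least 1.5-fold higher (1.85%). In this state the macrophage markers summed to 4015 CPM in WT and 5155 CPM in KO. The T and NK cell markers summed to 94.65 and 136 CPM and the neutrophil markers to 86.8 and 76.8 CPM. Median depth was 4790 and 5497 UMIs. The part of depth and of these markers in the ratios was not tested. In the MHC class II high state the 4 role groups had ratios of 1.02, 1.03, 1.003 and 0.964, each with an interval that holds 1, and 0 of 17 were 1.5-fold lower (1.46% of all genes) and 0 higher (1.92%).

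In the deeper C1q-high state the mevalonate arm was 390 CPM in WT and 351 CPM in KO (ratio 0.90, interval 0.836 to 0.969), the squalene and sterol arm 345 and 301 CPM (0.873, interval 0.807 to 0.945), and the regulators and transport genes 225 and 183 CPM (0.814, interval 0.738 to 0.9). The fatty acid arm was 215 and 237 CPM (1.10, interval 1.002 to 1.22). Stard4 was 33.04 CPM in WT and 13.9 CPM in KO, and Fdft1 was 29.4 and 13.4 CPM. These 2 were the members at least 1.5-fold lower, of 21 that passed the filter there, against 5.34% of all genes. Both passed that filter only through WT, and nothing is read from their count. Hmgcs1 (126 and 86.8 CPM), Cyp51 (106 and 73.1 CPM), Msmo1 (63.2 and 42.7 CPM) and Insig1 (90.4 and 64.8 CPM) had ratios of 0.689, 0.689, 0.676 and 0.717, with intervals below 1. Idi1 went the other way, 51.6 CPM in WT and 70.0 CPM in KO (1.36, interval 1.12 to 1.65), although it was lower in bulk. Insig2 (12.3 and 28.1 CPM) and Fads2 (6.90 and 20.5 CPM) were the 2 members at least 1.5-fold higher, against 8.16% of all genes, and both passed the filter only through KO. This state was the deepest of the class, with median depths of 13970 UMIs in WT and 19820 in KO. Its 15 markers of T and NK cells summed to 176 CPM in WT and 349 CPM in KO, and its 7 markers of migratory dendritic cells to 77.0 and 29.5 CPM. The part of depth and of these cells in the ratios was not tested. In the shallower C1q-high cluster, with 111 and 142 cells, the mevalonate arm was 356 and 235 CPM (0.661, interval 0.503 to 0.869).

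**Figure D4:**
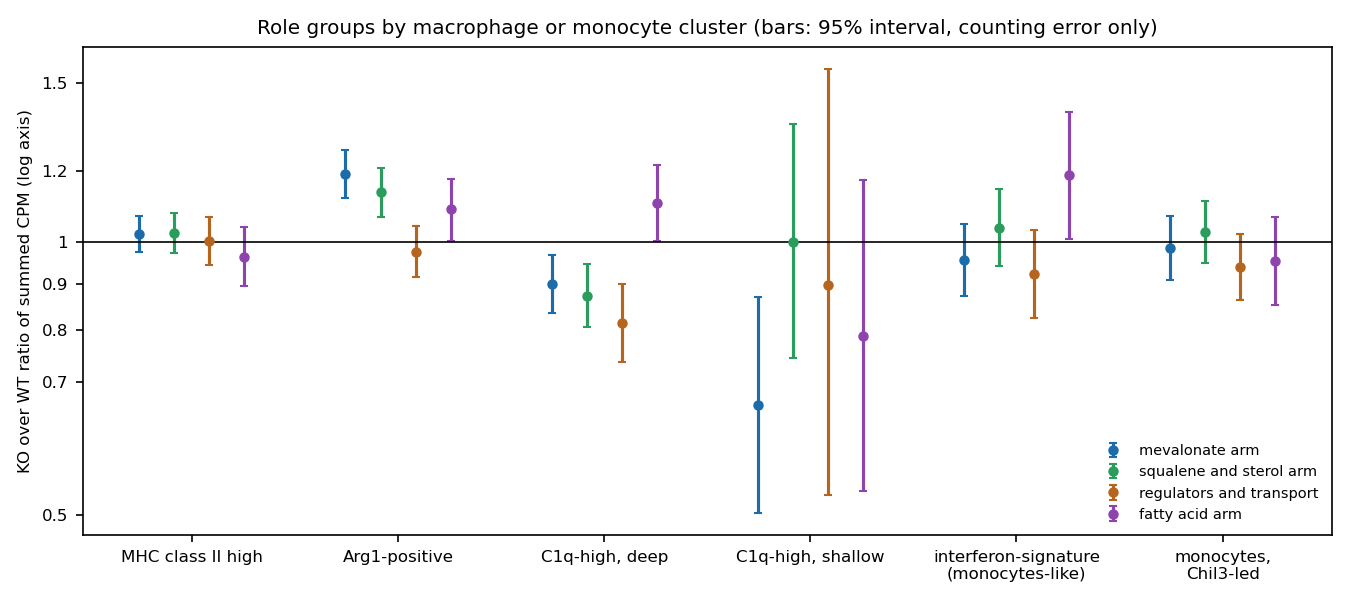
Ratio of summed CPM, KO over WT, of each role group in the 4 macrophage-like and 2 monocyte-like clusters, on a log axis, with bars for the 95% interval of counting error. In the Arg1-positive state the mevalonate and sterol points lie above 1 (1.19 and 1.14), in the deep C1q-high state they lie below it (0.90 and 0.873), and in the MHC class II high state they are near it.

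Member by member, the single cell ratios were set beside the bulk fold changes, over the same 16 members in every state, kept by the mean of both matrices in macrophage-like cells. Of the 12 called lower in bulk, 9 had a log2 ratio below 0 in the C1q-high state (41.3% of all genes), 3 in the Arg1-positive state (45.6% of all genes), 5 in the MHC class II high state (40.4% of all genes) and 8 in the class as a whole. Pearson's r between the bulk log2 fold change and the single cell log2 ratio was 0.61 in the C1q-high state, with Spearman's rho 0.66. It was 0.66 with rho 0.61 in the class, -0.067 with rho -0.12 in the Arg1-positive state, and 0.013 with rho 0.21 in the MHC class II high state. These values are across genes, which are not independent replicates, and describe 1 pair of matrices.

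**Figure D5:**
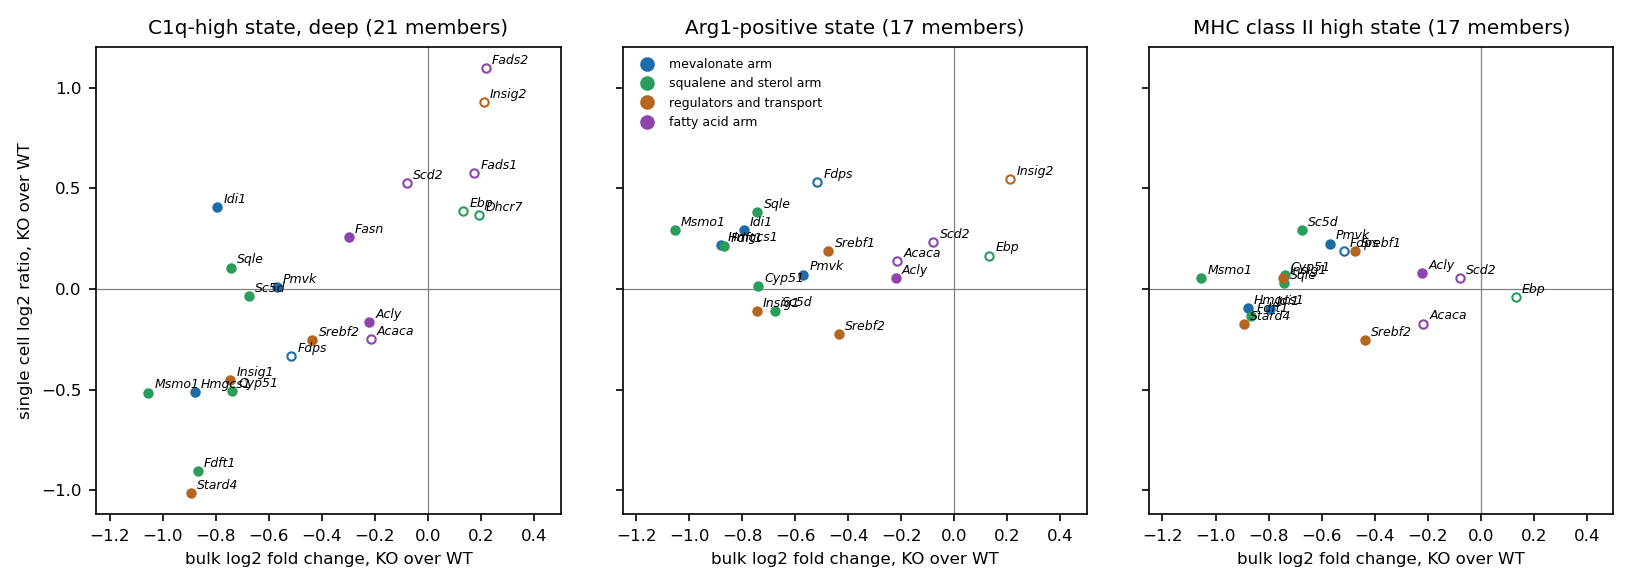
Bulk log2 fold change (x axis) against single cell log2 ratio (y axis), both KO over WT, for members that reached 20 CPM in either matrix in each state, coloured by role and filled where called lower in bulk. In the C1q-high panel Stard4 and Fdft1 are low on both axes and Fads2 and Insig2 are high on both. In that state Stard4 and Fdft1 reached 20 CPM only in WT, and Fads2 and Insig2 only in KO, so nothing is read from their positions. In the Arg1-positive panel most points lie above 0 on the y axis, Insig2 and Fdps the highest, and there too Insig2 reached 20 CPM only in KO. In the MHC class II high panel the points lie on both sides of 0 on the y axis.

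In CD4 T, CD8 T and NK cells, which are not the myeloid cells of Lyz2-cre, both sterol routes were higher in the KO matrix over each class as a whole. Not every cluster of these classes shared this. The mevalonate arm was 130 CPM in WT and 174 CPM in KO in CD4 T cells (ratio 1.34, interval 1.22 to 1.46), 272 and 322 CPM in CD8 T cells (1.18, interval 1.13 to 1.24) and 186 and 212 CPM in NK cells (1.14, interval 1.07 to 1.21). The CD4 class is made of 2 clusters. The first was led by Sidt1, Lef1 and S1pr1. It scored 0.361 for CD4 and 0.265 for CD8 T cell markers, so its lineage is uncertain. Within the 2 clusters, which hold 626 and 575 cells in WT and 403 and 819 in KO, the ratio of the mevalonate arm was 1.17 (1.01 to 1.36) and 1.27 (1.13 to 1.43). The arm was 320 and 314 CPM in regulatory T cells (0.98, interval 0.92 to 1.04). The squalene and sterol arm had ratios of 1.19, 1.13, 1.09 and 1.02 in the same order. Within the 2 CD4 clusters the ratio of this arm was 0.998 (0.878 to 1.135) and 1.09 (0.993 to 1.19), with intervals that hold 1. In gamma-delta T or innate lymphoid cells the mevalonate arm was 143 and 118 CPM (0.829, interval 0.642 to 1.07) and the sterol arm 156 and 208 CPM (1.33, interval 1.07 to 1.66). Among CD8 T cells, the cycling cluster held the mevalonate arm at 265 CPM in WT and 399 CPM in KO, a cluster led by Gzmf and Cd8a held it at 341 and 326 CPM, and a cluster led by Ccl5 and Cd8b1 at 122 and 162 CPM. In monocyte-like cells the arms were 304 and 292 CPM (mevalonate) and 292 and 299 CPM (sterol), with ratios of 0.96 and 1.02 whose intervals hold 1. A cluster of 274 and 252 cells led by Plet1, Ccl17 and Cst3, left unnamed because its leading genes include more markers of another class than its own, held the mevalonate arm at 539 CPM in WT and 674 CPM in KO, above every macrophage-like cluster. In that cluster the macrophage markers summed to 823 CPM in WT and 1581 CPM in KO and the T and NK cell markers to 128 and 285 CPM, and their part was not tested.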

How the data were processed

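The authors deposited raw read counts per gene for the bulk libraries. The file headers name featureCounts 2.0.6 and GENCODE vM10, with strand ignored and multi-mapped reads not counted. Both reads of a pair were counted, since 77.8% to 84.1% of counts from 1 to 20 were even. The single cell matrices are UMI counts deposited by the authors, and their headers name Cell Ranger 8.0.1. Each peak carries a score deposited by the authors. Peak caller and aligner settings: not given in the sources used here. mm10 is the build in the submitters' processing notes. Symbols were found for 99.2% of 48440 gene identifiers.

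KO was compared with WT by edgeR 4.0.16 in R 4.3.3 (quasi-likelihood, both sides, TMM scaling, genes kept by filterByExpr), with Benjamini-Hochberg adjustment over all 12939 tested genes. Bulk CPM are TMM-normalised, and FPKM uses the exon length in the count files. No replicate pair was identical, and equal replicate numbers did not pair the libraries.

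Cells with fewer than 500 genes, fewer than 1000 UMIs or over 10% mitochondrial UMIs were dropped, and Scrublet removed 501 WT and 319 KO doublets. Both matrices were clustered together in scanpy 1.11.5, using 2000 variable genes without the members, 30 components and 15 neighbours, with Leiden at resolution 1. A cluster took the name of its best marker list where at least 3 markers were each found in at least 20% of its cells and the score led the next list by at least 0.05. UMIs were summed per class and given as CPM. Log2 ratios add 5 CPM and need at least 100 UMIs over both matrices and at least 20 CPM in 1. All intervals are 95% and exact: Poisson for levels, conditional binomial for ratios and Clopper-Pearson for shares.

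Members, lists and tests were chosen with earlier results of these data known. The genes named are all members, up to 6 called genes with the smallest adjusted p from the related-pathway list and from the LXR list, and Ogt, Lyz2 and Egr2. The NF-Y genes, Abca1 and the leading genes of clusters were added after their values were seen. H3K27ac, H3K4me1 and EGR2 ChIP samples were not used here.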

Additional observations from a re-analysis of the deposited data

Results flagged for a closer look

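The following single cell ratios, KO over WT, pointed in opposite directions in different cells by more than counting error. With 1 matrix per genotype none of these differences was tested.

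Between the Arg1-positive and the deep C1q-high macrophage states, the ratio of the mevalonate arm was 1.19 against 0.90, a 1.32-fold difference between the ratios. For the squalene and sterol arm it was 1.14 against 0.873, a 1.30-fold difference. Hmgcs1 had ratios of 1.18 (1.05 to 1.32) and 0.689 (0.60 to 0.791), 1.71-fold apart. Msmo1 had 1.24 and 0.676, 1.84-fold apart. Fdps had 1.51 and 0.782, 1.93-fold apart. In bulk it was not called.

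Between classes, the mevalonate arm had a ratio of 1.34 in CD4 T cells and 0.952 in macrophage-like cells, 1.40-fold apart. Both classes mix clusters whose shares differ between the genotypes. The ratio was 1.17 and 1.27 within the 2 CD4 clusters, and 1.04, on the same side of 1, in macrophage-like cells with KO at the WT mix of states. The fatty acid arm had 1.08 in macrophage-like cells and 0.915 in CD4 T cells, 1.18-fold apart. Within the 2 CD4 clusters its ratio was 0.997 (0.900 to 1.103) and 0.968 (0.864 to 1.086), with intervals that hold 1. In macrophage-like cells with KO at the WT mix of states it was 1.02. Neutrophil-like cells (606 in WT and 760 in KO) were not among the classes compared here. Their ratio was 0.607 (0.424 to 0.868) for the fatty acid arm, from 72 and 60 UMIs. It was 0.735 (0.609 to 0.887) for the squalene and sterol arm, which had 1.19 in CD4 T cells. For their mevalonate arm and regulators it was 0.79 and 1.14, with intervals that hold 1.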

How the results depend on the processing

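The number of members called lower in bulk was 20, and 18 to 20 when 1 library was left out. Under RLE factors, upper-quartile scaling, DESeq2, no filter, a 10 CPM filter, counts divided by 2 and the replicate block it was 20 each, the block giving 20 lower and 0 higher. The number called higher was 0, but 1 under upper-quartile scaling, 1 with the 10 CPM filter and 1 with counts divided by 2 (Fads1 each time), and 0 to 2 when 1 library was left out. Of the 20 called members, 18 stayed lower and called in all 13 settings, the others being Lss and Nsdhl. Members not called that changed sign when 1 library was left out were Tm7sf2, with log2 fold changes from -0.066 (without KO replicate 2) to 0.13 (without WT replicate 1), and Scap, from -0.14 (without WT replicate 3) to 0.0042 (without WT replicate 1). Deviations of same-numbered libraries correlated at -0.0048, 0.0019 and 0.0112, and the numbers were not taken as pairs.

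In single cells, the counts of members past 1.5-fold were 0 lower and 1 higher in all 7 other settings, and 0 and 0 with the filter on the mean of both matrices, added after seeing the data. The summed ratio in macrophage-like cells ran from 0.953 to 0.984 across cell filters, doublet handling, Leiden resolution and variable genes, and was 1.02 with the KO level at the WT mix of states, an alternative added after seeing the data. Macrophage-like over lymphoid levels were 1.13 (WT) and 1.03 (KO) under the stricter cell filter, 1.14 and 1.01 at Leiden resolution 2, and 1.02 in KO with members allowed among the variable genes. State ratios were not recomputed under other clusterings. Members with an EGR2 KO peak were 3 within 5 kb. Members with an ATAC peak were 6 within 5 kb (23.2% of tested genes), 1 within 250 bp (4.96%) and 1 among the better-scoring peaks of the list (5.38%). The deepest KO library holds 32406170 counts and the shallowest WT library 7032540. The part of this difference in depth in the calls of members at low levels was not tested.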
